A study of Rattus norvegicus with 18 samples.

Results

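The 6 libraries of RNA precipitated with antibodies to hnRNP H1 and hnRNP F, weighted equally, were compared with the 3 libraries precipitated with an antibody to hnRNP K. They were chosen by their sample titles and make up 9 of the 18 libraries of the study. The material was axoplasm, the cytoplasm pressed out of nerve, from the proximal sciatic nerve of SD rats 7 days after the nerve was crushed. RNA immunoprecipitation (RIP) with hnRNP H1, with hnRNP F, with hnRNP K, with FLAG and with La/SSB, and the unprecipitated Input, gave 3 libraries each, and all groups share the strain, the crush and the time. Input and the FLAG RIP enter below only as levels. Axoplasm pressed from a whole nerve can hold RNA of Schwann cells, fibroblasts, macrophages and vessels beside that of axons. The labels name neither pooling of animals nor separate animals for the replicates, so a p-value speaks for the spread among the libraries, which may be technical.

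hnRNP H1 and hnRNP F are close relatives that bind runs of G in RNA through quasi-RRM domains, and both take part in splicing and polyadenylation. hnRNP K binds C-rich runs through KH domains. hnRNP K moves between nucleus and cytoplasm, and in Xenopus it has been described as a regulator of cytoskeletal mRNAs of growing axons such as those of NF-M, tau and GAP-43. The comparison asked which transcripts of the regenerating nerve were precipitated more with the G-run binders than with the C-run binder, and which less.

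Read totals ran from 6390747 to 8882239 in the hnRNP H1 and F RIP and from 12682770 to 16412065 in the hnRNP K RIP, so the hnRNP K levels rest on more reads. The spread between replicates, as the median SD of log2 CPM (counts per 1e6 reads), was 0.526 for hnRNP H1, 0.738 for hnRNP F and 0.363 for hnRNP K. Along the first principal component, with 52.6% of the variance, the 3 hnRNP K libraries lay on one side and the 6 others on the other. hnRNP H1 RIP 1 and hnRNP F RIP 3 were the ends of the second, with 14.0%. hnRNP F RIP 3 had the most transcripts without a read of the 9, 1097. Markers of several cell types moved with the antibody. The 7 neuronal markers, in 6 tested entries, held 0.0123% to 0.044% of reads with hnRNP H1 and F, against 0.00413% to 0.00478% with hnRNP K and 0.00776% to 0.0104% in Input, and 1 entry was higher and 2 were lower with hnRNP H1 and F. Nefm was the higher entry and made up most of the hnRNP H1 and F share, while Snap25 and Stmn2 were the lower ones. The 7 Schwann cell markers held 0.117% to 0.258% of reads with hnRNP H1 and F, against 0.38% to 0.445% with hnRNP K and 0.272% to 0.337% in Input, with 7 of 8 tested entries lower. Fibroblast markers, in which Col1a1 dominates, held 6.16% to 12% of reads with hnRNP H1 and F, against 12% to 21.3% with hnRNP K and 4.72% to 9.43% in Input, with 5 of 6 entries lower. Macrophage markers held 0.0274% to 0.0489% of reads with hnRNP H1 and F, against 0.0908% to 0.139% with hnRNP K and 0.134% to 0.168% in Input, with 4 of 5 entries lower. Endothelial markers held 0.00361% to 0.00881% of reads with hnRNP H1 and F, against 0.04% to 0.0519% with hnRNP K and 0.0146% to 0.0256% in Input, with 1 of 3 entries lower. Erythrocyte markers held 0.0261% to 0.0997% of reads with hnRNP H1 and F, against 0.141% to 0.194% with hnRNP K and 0.341% to 0.802% in Input, with 1 of 2 entries lower. Skeletal muscle markers held 0.000484% to 0.0125% of reads with hnRNP H1 and F, against 0.00169% to 0.0252% with hnRNP K and 0.00516% to 0.113% in Input, with 1 of 2 entries lower. None of the markers present in the table was at 0 reads in all 9 libraries. All groups came from one kind of axoplasm, and in bulk samples fewer cells of a type and less RNA per cell cannot be told apart. The part that differences in starting material had in the results was not tested.

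Of 12536 transcripts tested, 5689 (45.4%) differed between the pooled hnRNP H1 and F RIP and the hnRNP K RIP at an adjusted p under 0.05. All adjusted p-values are from the quasi-likelihood test of edgeR with Benjamini-Hochberg adjustment over all transcripts tested, and every log2 fold change is given as hnRNP H1 and F over hnRNP K, ± its standard error. CPM means are given ± SD with n = 3. 2908 transcripts (23.2%) were higher and 2781 (22.2%) were lower with hnRNP H1 and F. The median log2 fold change over all tested transcripts was 0.12. Among the higher ones 2325 had all 6 libraries above the 3 hnRNP K libraries, and among the lower ones 2419 had all 6 below. Over all tested transcripts those non-overlapping patterns held for 19.8% and 21%. The differences were large: 1630 of the higher transcripts passed a log2 fold change of 2 and 218 passed 4, while 1360 of the lower ones were below -2 and 50 below -4. The higher transcripts reached 7.16 and the lower ones -5.80. Transcripts called lower were longer (median 2638 bases) than those called higher (2212 bases) or all tested (2277 bases). Split into 5 groups by length, the shortest group had a median log2 fold change of 0.44 and the longest one of -0.15.

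**Figure D1:**
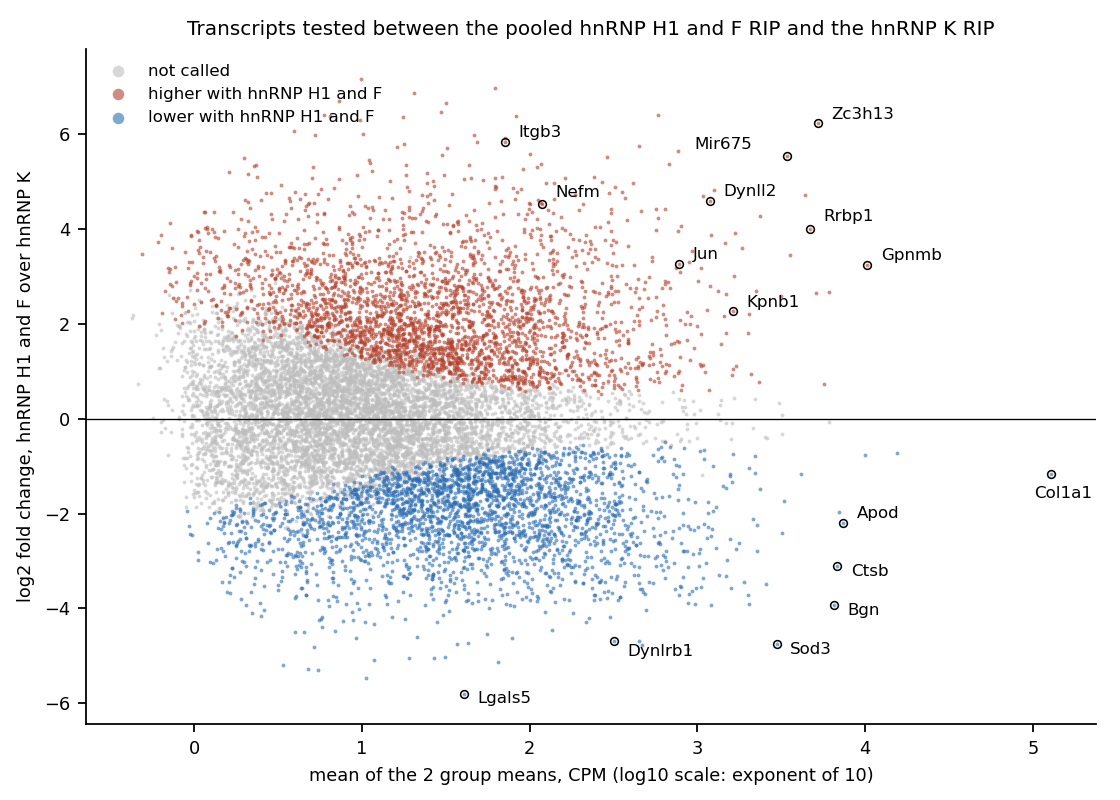
Log2 fold change of hnRNP H1 and F over hnRNP K (vertical) against the mean of the 2 group means in CPM (horizontal, as powers of 10) for the 12536 transcripts tested, with called transcripts in colour. The 2908 higher and 2781 lower transcripts span the whole range of abundance, and Col1a1, the most abundant, is among the lower ones.

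Set against Input, calls in either direction rested on both sides of the comparison. Transcripts called higher had a median log2 ratio to Input of 1.67 in the hnRNP H1 and F RIP and -0.74 in the hnRNP K RIP. Transcripts called lower had a median of -0.94 in the hnRNP H1 and F RIP and 1.04 in the hnRNP K RIP. Transcripts that were not called had 0.03 with hnRNP H1 and F and -0.20 with hnRNP K. No test was made on these ratios, since they share libraries with the call itself.

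**Figure D2:**
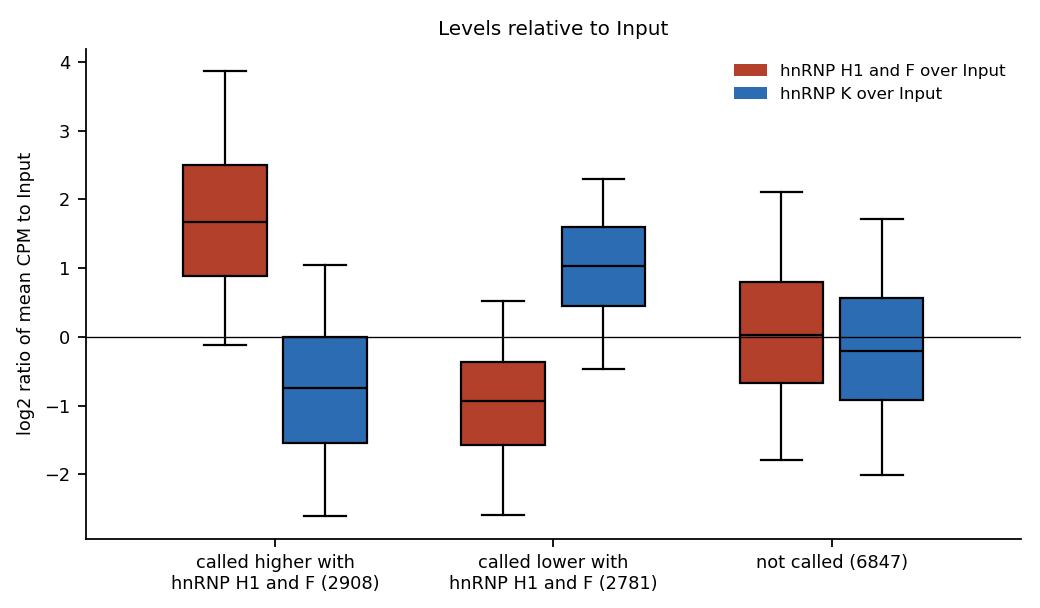
Log2 ratio of the group mean to the Input mean for hnRNP H1 and F (red) and hnRNP K (blue) in 3 sets of transcripts; lines are medians, boxes quartiles and whiskers the 5th to 95th percentile. The medians are 1.67 and -0.74 for the transcripts called higher, against -0.94 and 1.04 for those called lower, over the 2888 and 2780 transcripts with reads in all 3 group means.

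Zc3h13, a zinc finger protein of the complex that writes N6-methyladenosine on mRNA, joined a large fold to high abundance. It had 8874, 5567 and 6604 CPM in the hnRNP H1 RIP and 6743, 14439.5 and 20008 CPM in the hnRNP F RIP, against 139.7, 152 and 101 CPM in the hnRNP K RIP. The 6 Zc3h13 values lay above the 3 (log2 fold change 6.23 ± 0.40, adjusted p = 2.15e-08). Mean Zc3h13 levels were 517 ± 61.9 CPM in Input and 683 ± 308 CPM in the FLAG RIP (SD, n = 3 each). Rrbp1, a ribosome-binding protein of the endoplasmic reticulum, had 9964, 5141 and 7114 CPM in the hnRNP H1 RIP and 6243, 9897 and 14714 CPM in the hnRNP F RIP, against 746, 471 and 405 CPM in the hnRNP K RIP. Rrbp1 values did not overlap between the groups and were higher with hnRNP H1 and F (log2 fold change 4.01 ± 0.36, adjusted p = 2.91e-07). Slfn5, a Schlafen family member, had 9016, 6899 and 6998 CPM in the hnRNP H1 RIP and 6283, 7356 and 13733 CPM in the hnRNP F RIP, against 412, 302 and 236 CPM in the hnRNP K RIP. Slfn5 was higher in all 6 libraries than in any of the 3 (log2 fold change 4.72 ± 0.34, adjusted p = 4.99e-08).

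Gpnmb, a glycoprotein of lysosomes and phagocytic cells, was the most abundant of the transcripts named as higher. It had 14176, 14144 and 19683 CPM in the hnRNP H1 RIP and 11333, 16109.9 and 36375 CPM in the hnRNP F RIP, against 1701, 1721 and 2434 CPM in the hnRNP K RIP. The 6 Gpnmb values lay above the 3 (log2 fold change 3.24 ± 0.36, adjusted p = 2.50e-06). hnRNP F RIP 3 was its highest library, and the 3 hnRNP K values lay near those of Input (2052 ± 377 CPM). B2m, the light chain of MHC class I, was 6.34-fold higher (2.66 ± 0.24), and Glul, glutamine synthetase, 6.29-fold higher (2.65 ± 0.25). Plekha4, a phosphoinositide-binding adaptor, had a log2 fold change of 3.45 ± 0.34. Itgb3, the integrin beta 3 chain of the vitronectin receptor, had 144, 75.2 and 94.5 CPM in the hnRNP H1 RIP and 102, 178 and 241 CPM in the hnRNP F RIP, against 3.51, 2.41 and 0.938 CPM in the hnRNP K RIP. Itgb3 values did not overlap between the groups and were higher with hnRNP H1 and F (log2 fold change 5.84 ± 0.50, adjusted p = 1.94e-07). Its Input level, 3.55 ± 1.08 CPM, was near the hnRNP K level. Agpat4, an enzyme of phosphatidic acid synthesis, stood at 586 ± 82.2 CPM with hnRNP H1 and 1178 ± 513 CPM with hnRNP F, against 15.3 ± 3.71 CPM with hnRNP K (log2 fold change 5.76 ± 0.37, adjusted p = 1.86e-08; SD, n = 3 each). Sema4c, a transmembrane semaphorin, had a log2 fold change of 5.91 ± 0.55, and Snrpf, a core protein of spliceosomal snRNPs, one of 6.38 ± 0.60. Among the highest folds were transcripts that the hnRNP K RIP barely held. Muc6, a gel-forming mucin, had 187, 91.8 and 71.1 CPM in the hnRNP H1 RIP and 85.2, 122 and 185 CPM in the hnRNP F RIP, against 1.95, 0.415 and 0.335 CPM in the hnRNP K RIP. Muc6 was higher in all 6 libraries than in any of the 3 (log2 fold change 6.98 ± 0.63, adjusted p = 2.99e-07). Iqcg, a protein of motile cilia, had 43.8, 43.1 and 33.4 CPM in the hnRNP H1 RIP and 44.7, 26.8 and 51.8 CPM in the hnRNP F RIP, against 0.234, 0.581 and 0 CPM in the hnRNP K RIP. The 6 Iqcg values lay above the 3 (log2 fold change 6.87 ± 0.64, adjusted p = 3.99e-07). Ppp1r15a, the stress-induced regulator that brings a phosphatase to eIF2alpha, was lower in abundance and had a log2 fold change of 6.36 ± 0.83.

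**Figure D3:**
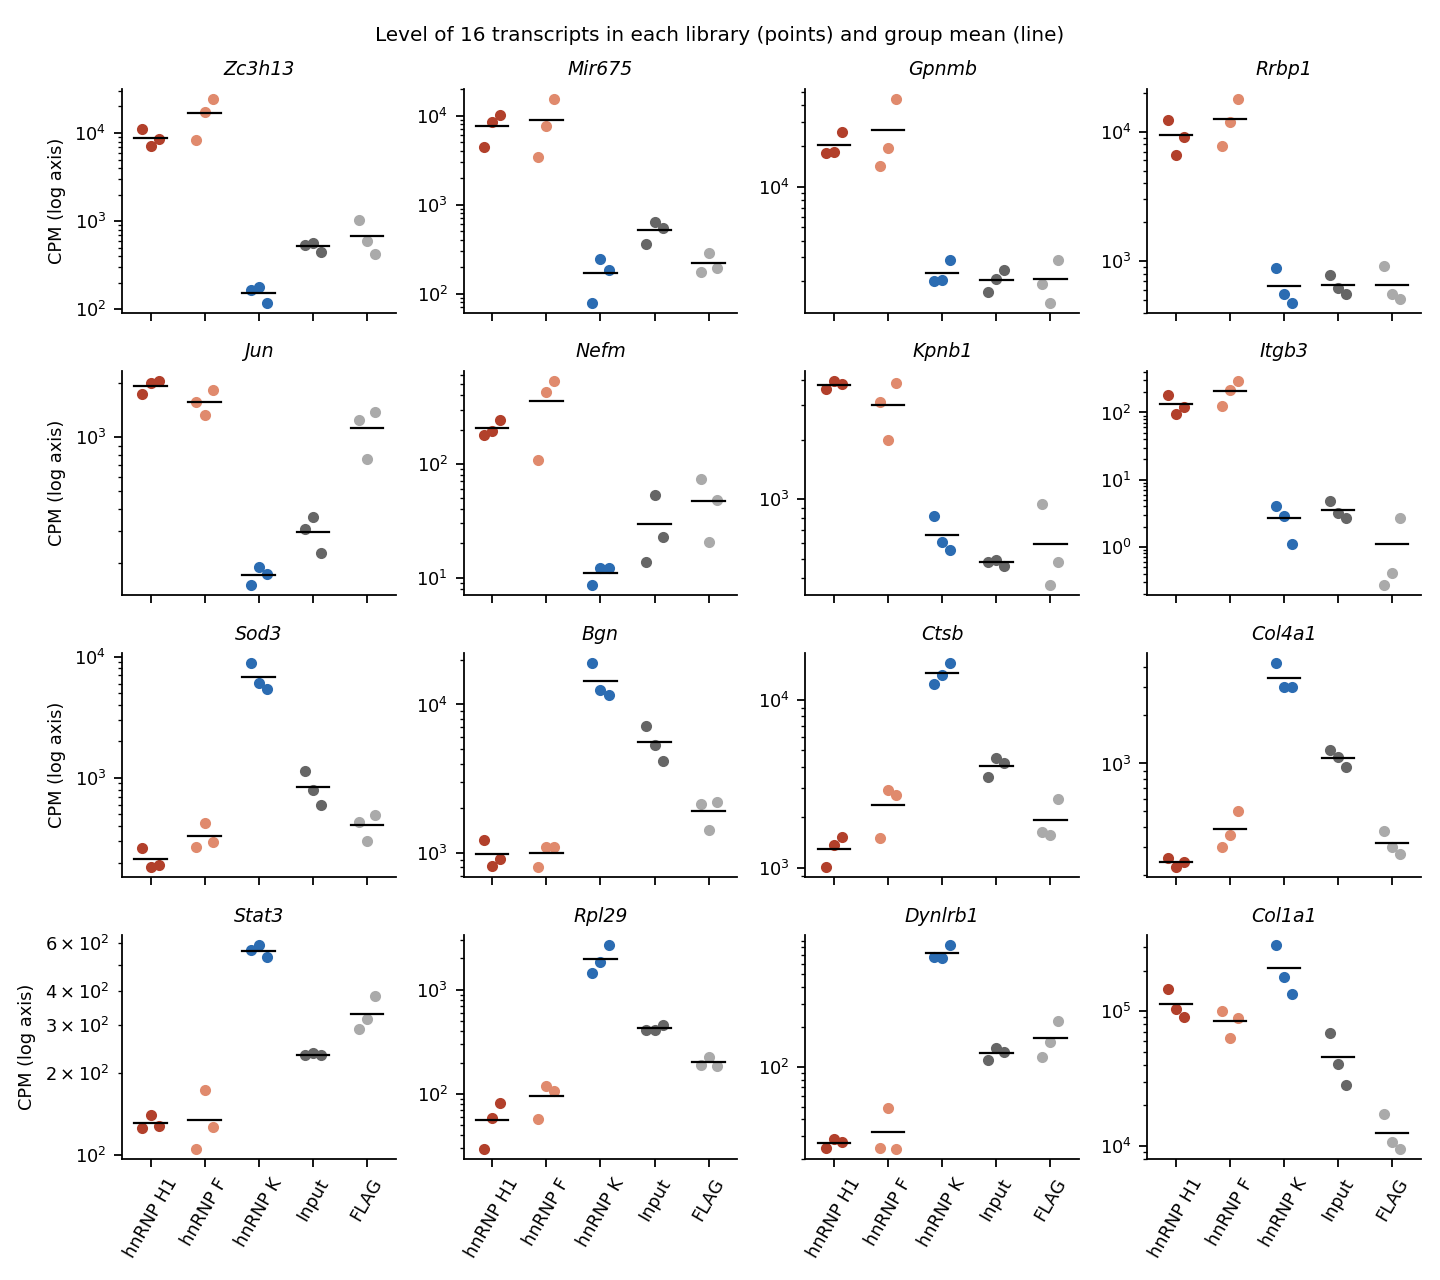
CPM (log axis) of 16 transcripts in each hnRNP H1, hnRNP F, hnRNP K, Input and FLAG library, scaled over all libraries together; points are libraries and lines are group means. In the upper 8 panels the 6 hnRNP H1 and F points lie above the 3 hnRNP K points, and in the lower 8 they lie below, with Col1a1 the only overlap of ranges.

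Among the most abundant transcripts that were lower with hnRNP H1 and F were Sod3, Bgn and Ctsb. Sod3, the extracellular superoxide dismutase, had 214, 144 and 147 CPM in the hnRNP H1 RIP and 217, 349.6 and 242 CPM in the hnRNP F RIP, against 7515, 5141 and 4559.7 CPM in the hnRNP K RIP. Sod3 values did not overlap between the groups and were lower with hnRNP H1 and F (log2 fold change -4.75 ± 0.24, adjusted p = 5.75e-09). It was 26.9-fold higher in the hnRNP K RIP, where its level also exceeded Input (846 ± 278 CPM). Bgn, the matrix proteoglycan biglycan, had 978, 644 and 712 CPM in the hnRNP H1 RIP and 645, 913 and 889.8 CPM in the hnRNP F RIP, against 16126, 10588 and 9916 CPM in the hnRNP K RIP. Bgn was lower in all 6 libraries than in any of the 3 (log2 fold change -3.94 ± 0.22, adjusted p = 7.84e-09). Ctsb, the lysosomal protease cathepsin B, had 812, 1071 and 1189 CPM in the hnRNP H1 RIP and 1203, 2413 and 2234 CPM in the hnRNP F RIP, against 10508, 11988 and 14069 CPM in the hnRNP K RIP. The 6 Ctsb values lay below the 3 (log2 fold change -3.11 ± 0.23, adjusted p = 5.94e-08). The hnRNP H1 and F values of Bgn and Ctsb were also below the Input mean, which was 5551 ± 1485 CPM for Bgn and 4063 ± 545 CPM for Ctsb.

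Apod, apolipoprotein D, which injured nerve makes in quantity, had 1711, 2166 and 2030.3 CPM in the hnRNP H1 RIP and 1568, 4857 and 4151 CPM in the hnRNP F RIP, against 7798, 13468 and 14812 CPM in the hnRNP K RIP. Apod values did not overlap between the groups and were lower with hnRNP H1 and F (log2 fold change -2.19 ± 0.29, adjusted p = 1.51e-05). Its hnRNP F values spread widely. Nid1, the basement membrane linker nidogen 1, had a log2 fold change of -1.97 ± 0.20, and Ywhae, a 14-3-3 adaptor, one of -1.16 ± 0.20. Atp1b2, a sodium pump subunit and glial adhesion molecule, stood at 33.6 ± 10.3 CPM with hnRNP H1 and 32 ± 18.3 CPM with hnRNP F, against 898 ± 151 CPM with hnRNP K (log2 fold change -4.77 ± 0.31, adjusted p = 2.32e-08). Abhd4, a hydrolase of N-acyl phospholipids, stood at 27.1 ± 4.88 CPM with hnRNP H1 and 40.8 ± 8.69 CPM with hnRNP F, against 865 ± 26.8 CPM with hnRNP K (log2 fold change -4.69 ± 0.21, adjusted p = 4.11e-09). Further down in abundance, Lgals5, a galectin of rat erythroid cells, had 0.257, 1.43 and 0.365 CPM in the hnRNP H1 RIP and 1.99, 0.67 and 4.34 CPM in the hnRNP F RIP, against 128, 50.4 and 60.3 CPM in the hnRNP K RIP. Lgals5 was lower in all 6 libraries than in any of the 3 (log2 fold change -5.80 ± 0.53, adjusted p = 3.79e-07). Dlk1, a Notch-like membrane protein of progenitor cells, had no more than 1.33 CPM in any hnRNP H1 or F library, against 18.2, 29.2 and 21.5 CPM in the hnRNP K RIP (-5.08 ± 0.53). The transcription factor genes Rfx2 (-5.03 ± 0.46) and Hivep3 (-4.62 ± 0.46) were among the 12 lowest as well.

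Genes of RNA-binding proteins themselves, hnRNP and SR proteins that package and splice RNA, were mostly higher with hnRNP H1 and F. In this list 40 of 68 tested entries (58.8%) were higher with hnRNP H1 and F, 13 (19.1%) were lower and 15 did not pass, with a median log2 fold change of 1.94 against 0.12 over all transcripts, of which 23.2% were higher and 22.2% lower, the shares against which each list count below is to be read. They held 1.02% to 1.3% of reads in the hnRNP H1 and F RIP, against 0.55% to 0.58% in the hnRNP K RIP. Among entries named Hnrnp, 14 of 19 were higher and 1 was lower. Hnrnpa2b1, which in rodent neurons binds transport elements of dendritic mRNAs, had 198, 158 and 232 CPM in the hnRNP H1 RIP and 142, 312 and 404 CPM in the hnRNP F RIP, against 3.51, 13.3 and 5.69 CPM in the hnRNP K RIP. The 6 Hnrnpa2b1 values lay above the 3 (log2 fold change 4.97 ± 0.49, adjusted p = 6.98e-07). Hnrnpul2, a nuclear RNA-binding protein, stood at 1069.5 ± 133 CPM with hnRNP H1 and 1066 ± 239.5 CPM with hnRNP F, against 67.3 ± 17.6 CPM with hnRNP K (log2 fold change 3.99 ± 0.28, adjusted p = 4.40e-08). Srsf5, an SR splicing factor, had a log2 fold change of 3.74 ± 0.27, and Khdrbs1, the RNA-binding signalling adaptor Sam68, one of 3.24 ± 0.27.

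The mRNAs of the precipitated proteins were rare, and they are no check of the antibodies, which recognise protein. Hnrnph1 had 8.87, 11.5 and 11.6 CPM in the hnRNP H1 RIP and 11.3, 6.3 and 4.5 CPM in the hnRNP F RIP, against 0.312, 2.07 and 1.41 CPM in the hnRNP K RIP. Hnrnph1 values did not overlap between the groups and were higher with hnRNP H1 and F (log2 fold change 2.74 ± 0.70, adjusted p = 0.00473). Hnrnpf had 2.44, 5.83 and 10.5 CPM in the hnRNP H1 RIP and 7.97, 1.21 and 0.161 CPM in the hnRNP F RIP, against 2.42, 1.24 and 0.804 CPM in the hnRNP K RIP, and this did not pass (log2 fold change 1.54 ± 0.90, adjusted p = 0.179). With voom and quality weights it passed (1.44, adjusted p = 0.049). Its hnRNP F values alone covered the whole hnRNP K range. Hnrnpk was not analysed here. The relatives Hnrnph2 (3.44 ± 0.31) and Hnrnph3 (4.63 ± 0.76) were higher. Ssb, the La protein, which binds polymerase III transcripts, was higher at 26.3 ± 1.71 CPM with hnRNP H1 and 51.2 ± 7.68 CPM with hnRNP F, against 11.9 ± 2.26 CPM with hnRNP K (log2 fold change 1.62 ± 0.34, adjusted p = 0.00113). Hnrnpul1, by contrast with Hnrnpul2, was lower, at 101 ± 24.2 CPM with hnRNP H1 and 121 ± 35.4 CPM with hnRNP F, against 603 ± 20.7 CPM with hnRNP K (log2 fold change -2.44 ± 0.23, adjusted p = 3.95e-07). The FLAG RIP held 592 ± 116 CPM of Hnrnpul1, near the 710 ± 24.4 CPM of the hnRNP K RIP when all 18 libraries were scaled together. Pcbp2, a poly(C)-binding protein with the same kind of KH domains as hnRNP K, was lower too (-2.52 ± 0.32), as was the SR gene Srsf2 (-1.82 ± 0.31).

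Calls of short noncoding entries that passed the count filter leaned in one direction. Of 72 entries of polymerase III and related small RNAs (such as U6 and 7SK), 45 passed that filter, with 6 symbols among them. An entry could pass it through the hnRNP H1 or F libraries alone, and how many did was not counted. Of the 45 tested entries, 23 were higher, 0 were lower and 22 did not pass (median log2 fold change 2.04). Most belong to the U6 and 7SK families, whose members are nearly alike, so reads cannot be assigned to a given member with certainty. The list held 0.0267% to 0.0427% of reads in the hnRNP H1 and F RIP, against 0.00652% to 0.0079% in the hnRNP K RIP. The hnRNP H1 and F share was below that of Input (0.051% to 0.0733%) and above that of the FLAG RIP (0.00318% to 0.0107%). Small nucleolar and Cajal body RNAs, which guide modification of ribosomal and spliceosomal RNA, had 80 entries. The same filter left 51 of them, of which 26 were higher and 1 was lower (median 2.22). SCARNA17, a Cajal body RNA, had 124, 127 and 158 CPM in the hnRNP H1 RIP and 137, 76.5 and 156 CPM in the hnRNP F RIP, against 6.47, 4.65 and 4.76 CPM in the hnRNP K RIP. SCARNA17 was higher in all 6 libraries than in any of the 3 (log2 fold change 4.59 ± 0.36, adjusted p = 8.22e-08). SCARNA18 had a log2 fold change of 5.56 ± 0.57 and SNORA21, an H/ACA guide, one of 5.14 ± 0.47. Most such RNAs lie in introns of other genes, and reads of those genes cannot be told apart from their own. With the trend of fold change on transcript length removed, the median of the nucleolar and Cajal list was 1.32, and that of the polymerase III list also fell, to 1.501.

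The table also holds 12 entries named for microRNA genes, of which 8 were tested. Their lengths are those of precursors or host exons, not of mature microRNAs, so their reads come from longer RNA. 6 of 8 were higher and 0 were lower, and they held 0.354% to 1.11% of reads in the hnRNP H1 and F RIP, against 0.0127% to 0.0254% in the hnRNP K RIP. Nearly all of that was Mir675, which lies in an exon of the imprinted long noncoding RNA H19, so its reads cannot be told apart from those of H19. Mir675 had 3593, 6682 and 7929.7 CPM in the hnRNP H1 RIP and 2772, 6329 and 12632 CPM in the hnRNP F RIP, against 66.9, 204 and 158 CPM in the hnRNP K RIP. The 6 Mir675 values lay above the 3 (log2 fold change 5.53 ± 0.55, adjusted p = 8.12e-07). The hnRNP K values were below the Input mean of 515 ± 137 CPM. Mir142, whose host RNA is made in blood cells, had 94.3, 53.9 and 93.3 CPM in the hnRNP H1 RIP and 55.3, 70 and 184 CPM in the hnRNP F RIP, against 0.858, 1.82 and 1.41 CPM in the hnRNP K RIP. Mir142 values did not overlap between the groups and were higher with hnRNP H1 and F (log2 fold change 5.98 ± 0.53, adjusted p = 2.95e-07). The sequences are shown because hnRNP H1 and F bind G runs; capitals mark every run of GGG or more in the precursors as RefSeq gives them for GRCr8, a build that need not be that of the counts.
Mir675 precursor, chr1:207161752-207161835, minus strand: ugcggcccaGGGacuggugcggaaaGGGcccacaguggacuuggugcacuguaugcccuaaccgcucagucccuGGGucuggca
Mir142 precursor, chr10:73055104-73055190, plus strand: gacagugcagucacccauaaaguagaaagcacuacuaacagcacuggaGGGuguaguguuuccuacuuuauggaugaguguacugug
Mir3074 precursor, chr17:1818648-1818764, plus strand: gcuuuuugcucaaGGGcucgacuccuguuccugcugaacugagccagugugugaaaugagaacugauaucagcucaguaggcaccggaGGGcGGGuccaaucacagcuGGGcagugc
Mir125b1 precursor, chr8:50850036-50850122, plus strand: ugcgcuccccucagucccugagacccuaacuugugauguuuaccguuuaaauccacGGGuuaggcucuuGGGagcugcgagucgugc
Mir568 precursor, chr11:70559859-70559954, minus strand: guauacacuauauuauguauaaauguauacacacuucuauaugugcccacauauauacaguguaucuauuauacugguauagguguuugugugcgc
The motif searched was GGG, on the RNA strand only. It occurs in 70.4% of the 419 rat precursors in that table, and CCC in 60.4%, so its presence in most of those shown is common. Mir568, the only precursor shown without a G run, had the smallest fold of the 6 called entries (log2 fold change 1.14 ± 0.31, adjusted p = 0.00747). The called entry Mir199a2 had no matched precursor, and its G runs were not searched. Mir143 and Mir186, tested but not called, have 2 G runs each. Mir143 had a smaller fold than Mir568 (0.51, adjusted p = 0.642) and Mir186 a larger one (1.797, adjusted p = 0.184). A link between G runs and fold was not tested. The Mir568 call was lost in the fit of 15 RIP libraries (1.19, adjusted p = 0.0796) and without hnRNP K RIP 3 (0.82, adjusted p = 0.08). With the trend on transcript length removed, Mir568 was at 0.22 (adjusted p = 0.608) and Mir125b1 at 1.69 (adjusted p = 0.0547), against 2.67 ± 0.72 before, so neither passed. The same correction left Mir675 at 4.59 (adjusted p = 4.14e-06), Mir142 at 5.15 (adjusted p = 1.49e-06) and Mir3074 at 2.69 (adjusted p = 0.0452). Mir3074 (3.51 ± 1.07) and Mir125b1 rested on few reads, with mean levels of 3.21 and 7.47 CPM in the hnRNP H1 RIP. Mir3074 did not pass without hnRNP K RIP 1 (adjusted p = 0.0616) or hnRNP K RIP 2 (adjusted p = 0.0694). A match of letters describes the sequence and locates no binding.
The mature RNAs are shown for the seed, bases 2 to 8 in capitals, which differs in each of them.
miR-675-5p: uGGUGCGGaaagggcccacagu
miR-675-3p: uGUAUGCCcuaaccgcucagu
miR-142-5p: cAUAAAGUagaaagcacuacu
miR-142-3p: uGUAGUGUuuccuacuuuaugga
These 4 are products of the 2 most strongly enriched precursor entries, and their own levels were not measured by these counts.

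Transcripts known from axons split between the antibodies, with more on the hnRNP H1 and F side. Of the list of axonally localized mRNAs, 23 of 57 tested entries (40.4%) were higher with hnRNP H1 and F, 13 (22.8%) were lower and 21 did not pass (median 0.43). They held 2.05% to 2.625% of reads in the hnRNP H1 and F RIP, against 1.1% to 1.77% in the hnRNP K RIP. That share was not above Input (2.629% to 3.56%) or the FLAG RIP (2.29% to 2.74%). Of regeneration-associated genes, 15 of 33 tested entries (45.5%) were higher with hnRNP H1 and F, 7 (21.2%) were lower and 11 did not pass (median 0.72). Their share of reads was 0.803% to 1.14% with hnRNP H1 and F and 0.303% to 0.379% with hnRNP K. It was 0.374% to 0.457% in Input and 0.54% to 0.608% in the FLAG RIP. Jun, the transcription factor that injured neurons and Schwann cells both switch on, had 1405, 1584 and 1609 CPM in the hnRNP H1 RIP and 1261, 1104 and 1494 CPM in the hnRNP F RIP, against 128, 161 and 146 CPM in the hnRNP K RIP. Jun was higher in all 6 libraries than in any of the 3 (log2 fold change 3.27 ± 0.23, adjusted p = 4.33e-08). The hnRNP K values of Jun were below the Input mean of 297 ± 66.7 CPM, although the FLAG RIP held 1132 ± 328 CPM. Stat3, the other transcription factor of the injury response whose mRNA has been found in axons, went the opposite way. It had 101, 110.1 and 99.8 CPM in the hnRNP H1 RIP and 84.1, 143 and 103 CPM in the hnRNP F RIP, against 481, 499 and 454 CPM in the hnRNP K RIP. The 6 Stat3 values lay below the 3 (log2 fold change -2.16 ± 0.21, adjusted p = 6.56e-07).

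Kpnb1, importin beta 1, which is made locally in axons after injury and carries cargo to the nucleus, had 2909, 3104 and 2976 CPM in the hnRNP H1 RIP and 2488, 1650.2 and 3153 CPM in the hnRNP F RIP, against 698, 514 and 470.5 CPM in the hnRNP K RIP. Kpnb1 values did not overlap between the groups and were higher with hnRNP H1 and F (log2 fold change 2.27 ± 0.25, adjusted p = 2.63e-06). Bcl2l2, the anti-apoptotic protein Bcl-w, whose axonal mRNA supports axon survival, had 359, 391 and 388 CPM in the hnRNP H1 RIP and 283, 341 and 414 CPM in the hnRNP F RIP, against 45.8, 50.3 and 50.9 CPM in the hnRNP K RIP. Bcl2l2 was higher in all 6 libraries than in any of the 3 (log2 fold change 2.88 ± 0.24, adjusted p = 1.42e-07). Hspa5, the chaperone BiP, and Pdia3, a disulfide isomerase, are endoplasmic reticulum proteins, and their log2 fold changes were 3.36 ± 0.28 and 3.96 ± 0.37. Rab13, a GTPase whose mRNA localizes to protrusions, had 794, 838 and 1277 CPM in the hnRNP H1 RIP and 717, 1686 and 2630.4 CPM in the hnRNP F RIP, against 24.5, 36.2 and 30.9 CPM in the hnRNP K RIP. The 6 Rab13 values lay above the 3 (log2 fold change 5.38 ± 0.42, adjusted p = 9.30e-08). Dpysl2, the tubulin-binding protein CRMP2, was higher at 1867 ± 147 CPM with hnRNP H1 and 1027 ± 229.6 CPM with hnRNP F, against 347 ± 20.2 CPM with hnRNP K (2.00 ± 0.22). On the other side, Cfl1, the actin-severing protein cofilin, stood at 91.6 ± 11.2 CPM with hnRNP H1 and 169 ± 97 CPM with hnRNP F, against 1457 ± 135 CPM with hnRNP K (log2 fold change -3.55 ± 0.27, adjusted p = 7.30e-08). Cryab, a small heat shock protein, and Cd44, the hyaluronan receptor, were lower, with log2 fold changes of -3.51 ± 0.40 and -2.19 ± 0.20.

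Of neuronal transcripts, 3 of 22 tested entries (13.6%) were higher with hnRNP H1 and F, 4 (18.2%) were lower and 15 did not pass. Both shares were under the 23.2% and 22.2% of all transcripts. Their median was -0.23, or 0.02 with scaling to total counts. Nefm, the middle neurofilament chain, had 143, 153 and 189 CPM in the hnRNP H1 RIP and 86.1, 354 and 438 CPM in the hnRNP F RIP, against 7.33, 10.3 and 10.2 CPM in the hnRNP K RIP. Nefm values did not overlap between the groups and were higher with hnRNP H1 and F (log2 fold change 4.54 ± 0.47, adjusted p = 1.23e-06), and hnRNP F RIP 1 was the lowest of the 6. Mapt, which codes for tau, had 59.8, 25.4 and 31.4 CPM in the hnRNP H1 RIP and 24.6, 22.1 and 45.2 CPM in the hnRNP F RIP, against 4.05, 4.31 and 6.1 CPM in the hnRNP K RIP. Mapt was higher in all 6 libraries than in any of the 3 (log2 fold change 2.82 ± 0.46, adjusted p = 0.000124). Gap43, a membrane protein of growth cones, had 121, 89.7 and 92.3 CPM in the hnRNP H1 RIP and 78.4, 128 and 185 CPM in the hnRNP F RIP, against 58.8, 53.4 and 39.6 CPM in the hnRNP K RIP. The 6 Gap43 values lay above the 3 (log2 fold change 1.18 ± 0.30, adjusted p = 0.00483). The Gap43 difference was 2.26-fold. Nefl, the light neurofilament chain, had 2.18, 8.39 and 6.93 CPM in the hnRNP H1 RIP and 7.44, 30.4 and 22.7 CPM in the hnRNP F RIP, against 3.04, 6.8 and 2.34 CPM in the hnRNP K RIP. The Nefl ranges overlapped and the difference did not pass (log2 fold change 1.41 ± 0.63, adjusted p = 0.0806). It passed without hnRNP H1 RIP 1 (1.61, adjusted p = 0.0417) or without hnRNP F RIP 1 (1.57, adjusted p = 0.043). Nrn1, neuritin, had 9.38, 14.2 and 19.5 CPM in the hnRNP H1 RIP and 20.1, 9.65 and 39.9 CPM in the hnRNP F RIP, against 32, 23.3 and 26.5 CPM in the hnRNP K RIP, and it did not pass either (log2 fold change -0.57 ± 0.43, adjusted p = 0.298). Ntrk2, the BDNF receptor TrkB, of which glia make a short form, was lower at 101 ± 43.9 CPM with hnRNP H1 and 125 ± 46.5 CPM with hnRNP F, against 1347 ± 475 CPM with hnRNP K (log2 fold change -3.58 ± 0.30, adjusted p = 1.80e-07). The synaptic vesicle gene Vamp2 (-2.05 ± 0.27) and the rarer Snap25 (-3.26 ± 0.84) and Stmn2 (-2.95 ± 0.63) were lower as well.

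Carriers between cytoplasm and nucleus were divided. Of 24 transcripts of importins, transportins and exportins, 9 were higher, 6 were lower and 9 did not pass; this grouping and those of the complexes that follow were made after values had been seen. Kpnb1, Ipo7 (2.46 ± 0.27), Tnpo1 (1.76 ± 0.23) and Tnpo2 (1.95 ± 0.26), of the beta family that carries cargo through the pore, were higher. Their hnRNP H1 and hnRNP F means were above the FLAG means when all 18 libraries were scaled together. Ipo9 (-1.55 ± 0.28), Xpo5 (-1.61 ± 0.37) and Xpo6 (-1.25 ± 0.33), of the same family, were lower. On that scale Ipo9 had 136 ± 18.2 CPM in the hnRNP K RIP and 152 ± 65.6 CPM in the FLAG RIP. Xpo5 had 46.5 ± 10.8 CPM with hnRNP K and 116 ± 88.9 CPM with FLAG, and Xpo6 had 104 ± 9.56 and 101 ± 33 CPM. The hnRNP K levels of these were thus not clearly above the control RIP. The exportin genes Xpo1 (1.31 ± 0.33) and Xpo4 (0.89 ± 0.33, adjusted p = 0.04) were higher, so exportin calls lay on both sides. Xpo4 passed in hnRNP H1 over K (1.31, adjusted p = 0.0113) but not in hnRNP F over K (0.46, adjusted p = 0.343). Xpo6 did not pass in hnRNP F over K either (-0.89, adjusted p = 0.0873). Xpo1 had 89.4 ± 19.2 CPM with hnRNP H1 and 111 ± 58.3 CPM with hnRNP F, against 118 ± 32.3 CPM in the FLAG RIP, scaled over all 18 libraries. Of the alpha adaptors that link cargo to importin beta, Kpna1 (-1.44 ± 0.24) and Kpna3 (-1.48 ± 0.26) were lower and Kpna4 (1.42 ± 0.24) was higher. Cse1l, which returns the alpha adaptors to the cytoplasm, was the lowest (-1.63 ± 0.41). Its mean over all 18 libraries scaled together was 35.7 CPM with hnRNP K, below the 70.2 CPM of the FLAG RIP. The hnRNP K means of Kpna1 and Kpna3 were above their FLAG means. In the wider list of nuclear import and retrograde injury signalling, 15 of 42 tested entries (35.7%) were higher with hnRNP H1 and F, 9 (21.4%) were lower and 18 did not pass. Vim, vimentin, which in injured rat nerve links a kinase to the retrograde complex, was lower at 436 ± 24.9 CPM with hnRNP H1 and 638 ± 210.2 CPM with hnRNP F, against 1781 ± 674 CPM with hnRNP K (-1.76 ± 0.26), and Mapk8ip1, a JNK scaffold on motors, was higher (2.51 ± 0.30).

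Of microtubule motors and tubulins, 16 of 64 tested entries (25%) were higher with hnRNP H1 and F, 15 (23.4%) were lower and 33 did not pass, near the 23.2% and 22.2% of all transcripts. Dynll2, a light chain of dynein, had 2087, 1984 and 2259 CPM in the hnRNP H1 RIP and 1441, 1694 and 4282 CPM in the hnRNP F RIP, against 91.5, 102 and 89.6 CPM in the hnRNP K RIP. Dynll2 values did not overlap between the groups and were higher with hnRNP H1 and F (log2 fold change 4.60 ± 0.37, adjusted p = 1.05e-07). Dynlrb1, a light chain of another family in the same motor, had 19.4, 22.2 and 21 CPM in the hnRNP H1 RIP and 19.4, 40.7 and 19.5 CPM in the hnRNP F RIP, against 573, 565 and 704 CPM in the hnRNP K RIP. Dynlrb1 was lower in all 6 libraries than in any of the 3 (log2 fold change -4.70 ± 0.26, adjusted p = 7.42e-09). These 2 light chains were the highest and the lowest of 20 tested entries of dynein, dynactin and their regulators. Of the 20, 7 were higher, 4 were lower and 9 did not pass. Dynll1 was lower (-1.25 ± 0.39, adjusted p = 0.0147). Pafah1b1, the dynein regulator LIS1, was higher (1.66 ± 0.26), and Tuba1a, the alpha tubulin of growing neurons, was higher at 1291 ± 254 CPM with hnRNP H1 and 2511 ± 1244 CPM with hnRNP F, against 368 ± 75.2 CPM with hnRNP K (2.29 ± 0.32). Tubb4a, a beta tubulin of neurons and myelinating glia, was lower (-3.85 ± 0.32), as was Mapre2, a microtubule end-binding protein (-3.04 ± 0.21).

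Of actin regulators and small GTPases, 20 of 84 tested entries (23.8%) were higher with hnRNP H1 and F, 30 (35.7%) were lower and 34 did not pass (median -0.31). Within it, the Arp2/3 complex, which starts actin branches, had 15 tested entries from 9 symbols, of which 7 were higher, 1 was lower and 7 did not pass. Arpc1b had 3215, 4307 and 6587 CPM in the hnRNP H1 RIP and 2699, 3056 and 7093 CPM in the hnRNP F RIP, against 154, 239 and 299 CPM in the hnRNP K RIP. The 6 Arpc1b values lay above the 3 (log2 fold change 4.28 ± 0.40, adjusted p = 4.80e-07). Arpc3 (3.85 ± 0.42), Arpc5l (3.33 ± 0.38) and Actr2 (2.33 ± 0.25) were higher, and Arpc4 was higher by 1.42 ± 0.21. Arpc5, the paralog of Arpc5l that fills the same place in the complex, was the lower one, at 73.5 ± 18.2 CPM with hnRNP H1 and 104 ± 13.5 CPM with hnRNP F, against 752 ± 85.3 CPM with hnRNP K (log2 fold change -3.100 ± 0.21, adjusted p = 3.41e-08, no overlap). Scaled over all 18 libraries, Arpc5 stood at 1156 ± 552 CPM in the FLAG RIP, above the 885 ± 99.1 CPM of the hnRNP K RIP. On the same scale Actr2 stood at 433 ± 191 CPM in the FLAG RIP. That lay between 586 ± 112 CPM with hnRNP H1 and 282 ± 67.5 CPM with hnRNP F. For Arpc1b, Arpc3, Arpc5l and Arpc4 the FLAG mean was below both the hnRNP H1 and the hnRNP F mean. Actb, beta actin, whose mRNA is a classic axonal cargo, was lower at 33.3 ± 7.55 CPM with hnRNP H1 and 63.5 ± 12.6 CPM with hnRNP F, against 124 ± 5.75 CPM with hnRNP K (log2 fold change -1.43 ± 0.25, adjusted p = 0.000214). Myl12b, a myosin light chain (-3.88 ± 0.24), Rhog, a small GTPase (-3.76 ± 0.22), and Vcl, the adhesion protein vinculin (-3.71 ± 0.26), were lower by more.

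**Figure D4:**
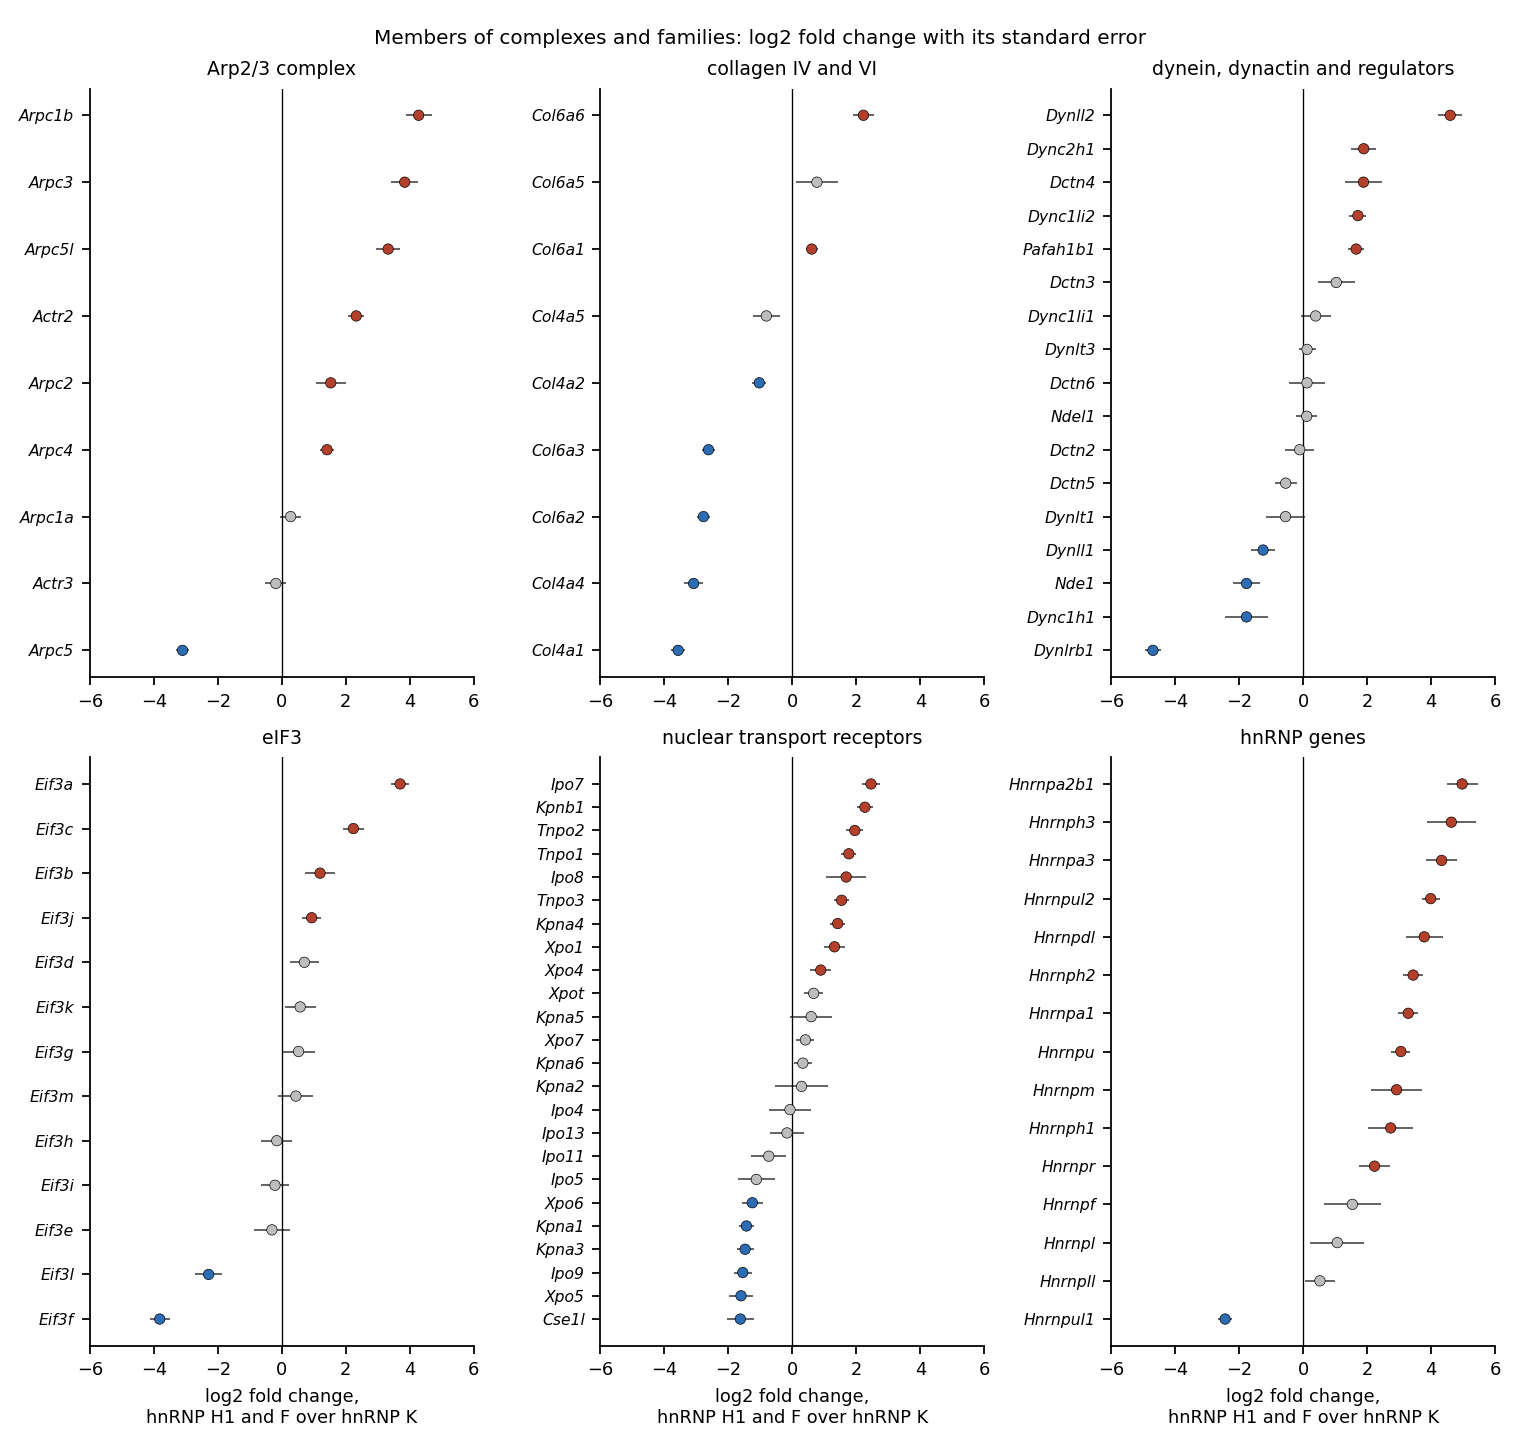
Log2 fold change of hnRNP H1 and F over hnRNP K (points) with its standard error (bars) for members of 6 complexes and families, with called members in red (higher) or blue (lower) and the most abundant entry standing for a symbol. In each panel called members lie on both sides of 0, and hnRNP genes have 1 on the lower side.

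Extracellular matrix transcripts were more often lower than higher. Of collagens, 10 of 36 tested entries (27.8%) were higher with hnRNP H1 and F, 16 (44.4%) were lower and 10 did not pass (median -0.65, and -0.20 without hnRNP K RIP 1). The collagens held 7.23% to 13.1% of reads in the hnRNP H1 and F RIP, against 13.7% to 23.4% in the hnRNP K RIP, most of it Col1a1. Col1a1, the alpha 1 chain of collagen I, had 116416, 81217 and 70655 CPM in the hnRNP H1 RIP and 80641, 52723 and 72092 CPM in the hnRNP F RIP, against 261366, 152930.0 and 113645 CPM in the hnRNP K RIP (log2 fold change -1.17 ± 0.26, adjusted p = 0.00174). Its ranges overlapped, since hnRNP H1 RIP 1 reached above hnRNP K RIP 3. The chains of collagen IV, the network of basement membranes, included Col4a1 with 206, 175 and 187 CPM in the hnRNP H1 RIP and 241, 297 and 415 CPM in the hnRNP F RIP, against 3618, 2555 and 2578 CPM in the hnRNP K RIP. Col4a1 values did not overlap between the groups and were lower with hnRNP H1 and F (log2 fold change -3.57 ± 0.21, adjusted p = 1.26e-08). Col4a2, whose gene shares a promoter with Col4a1, was lower by less (-1.04 ± 0.22). Of 3 called entries of Col4a4, the most abundant was lower (-3.09 ± 0.30) and the others were higher (3.68 ± 0.74 and 2.04 ± 0.79). The last of these had an adjusted p of 0.0456 and lost its call in the fit of 15 RIP libraries (adjusted p = 0.0987) and without any 1 of hnRNP H1 RIP 1 to 3, hnRNP K RIP 1 to 3, hnRNP F RIP 1 or hnRNP F RIP 2 (adjusted p between 0.0517 and 0.217). How reads were shared between these transcripts of 1 gene is not known. Collagen VI, a matrix protein of Schwann cells and fibroblasts assembled from 3 different chains, was split. Col6a2 stood at 437 ± 42.7 CPM with hnRNP H1 and 759 ± 136 CPM with hnRNP F, against 3959.8 ± 902 CPM with hnRNP K (log2 fold change -2.78 ± 0.20, adjusted p = 5.42e-08) and Col6a3 had a log2 fold change of -2.62 ± 0.20. Col6a1 was slightly higher (log2 fold change 0.60 ± 0.19, adjusted p = 0.0185), a call lost without hnRNP K RIP 2 (adjusted p = 0.0656) or hnRNP K RIP 3 (adjusted p = 0.159). Col6a6 was higher by 2.22 ± 0.32.

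Of matrix proteins other than collagens, 8 of 51 tested entries (15.7%) were higher with hnRNP H1 and F, 20 (39.2%) were lower and 23 did not pass (median -0.84). The small leucine-rich proteoglycans that bind collagen fibrils, Lum (-2.91 ± 0.20) and Dcn (-2.31 ± 0.20), were lower, as Bgn was. Lox, which cross-links collagen and elastin, was lower (-2.89 ± 0.22). Eln, elastin, had 189.7, 97 and 133 CPM in the hnRNP H1 RIP and 209, 176 and 310.2 CPM in the hnRNP F RIP, against 2288, 1067 and 1376 CPM in the hnRNP K RIP. Eln was lower in all 6 libraries than in any of the 3 (log2 fold change -3.13 ± 0.27, adjusted p = 2.41e-07). The higher members included Matn2, a matrilin that Schwann cells lay down for regrowing axons, at 405 ± 96 CPM with hnRNP H1 and 229.8 ± 46 CPM with hnRNP F, against 76.5 ± 12.5 CPM with hnRNP K (log2 fold change 2.00 ± 0.26, adjusted p = 1.21e-05), and Ltbp1, which stores latent TGF-beta (1.36 ± 0.22). Of laminins and integrins, 3 of 26 tested entries (11.5%) were higher with hnRNP H1 and F, 8 (30.8%) were lower and 15 did not pass. Lamc1, the gamma 1 chain present in most laminins, had 949.8, 1014 and 869 CPM in the hnRNP H1 RIP and 1091, 1053 and 1111 CPM in the hnRNP F RIP, against 6721, 5305 and 4026 CPM in the hnRNP K RIP. The 6 Lamc1 values lay below the 3 (log2 fold change -2.40 ± 0.19, adjusted p = 1.08e-07). Itga5, the fibronectin receptor alpha chain, was lower at 16.4 ± 2.97 CPM with hnRNP H1 and 20 ± 4.42 CPM with hnRNP F, against 265 ± 10.2 CPM with hnRNP K (-3.86 ± 0.24), opposite to Itgb3 above.

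Schwann cell transcripts were lower in 13 of 32 tested entries and higher in 6, with a median of -0.92. Sox10, the transcription factor that defines the lineage, had 41.9, 57.2 and 50.2 CPM in the hnRNP H1 RIP and 29.4, 52.8 and 40.7 CPM in the hnRNP F RIP, against 309.5, 509 and 516 CPM in the hnRNP K RIP. Sox10 values did not overlap between the groups and were lower with hnRNP H1 and F (log2 fold change -3.30 ± 0.25, adjusted p = 6.76e-08). A lipid carrier of peripheral myelin, Pmp2, had 1853, 1624 and 1337 CPM in the hnRNP H1 RIP and 1774, 1245 and 1084 CPM in the hnRNP F RIP, against 803, 705 and 530.4 CPM in the hnRNP K RIP. Pmp2 was higher in all 6 libraries than in any of the 3 (log2 fold change 1.12 ± 0.23, adjusted p = 0.000999). Ngfr, the p75 receptor that denervated Schwann cells express, was lower (-1.99 ± 0.33), and so were Fa2h (-3.99 ± 0.51) and Ugt8 (-2.34 ± 0.32), enzymes of myelin galactolipids. Cd9, a tetraspanin of myelinating cells, was higher at 101 ± 18.4 CPM with hnRNP H1 and 117 ± 28.9 CPM with hnRNP F, against 4.6 ± 0.824 CPM with hnRNP K (log2 fold change 4.54 ± 0.34, adjusted p = 6.99e-08). Cdh2, N-cadherin (2.83 ± 0.35), and Dhh, the hedgehog ligand that Schwann cells send to the perineurium (2.85 ± 0.41), were higher as well.

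Transcripts of immune and vessel cells were also divided. Of macrophage and leukocyte entries, 9 of 37 tested entries (24.3%) were higher with hnRNP H1 and F, 14 (37.8%) were lower and 14 did not pass (median -0.51). Fcer1g, the signalling chain of Fc receptors, had 225, 166 and 215 CPM in the hnRNP H1 RIP and 155, 336 and 389.7 CPM in the hnRNP F RIP, against 1929.5, 1751 and 2349 CPM in the hnRNP K RIP. The 6 Fcer1g values lay below the 3 (log2 fold change -3.04 ± 0.25, adjusted p = 1.42e-07). Cybb, the phagocyte oxidase (-1.95 ± 0.18), Cd74, the MHC class II invariant chain (-2.13 ± 0.19), and Ccl2, a monocyte attractant (-3.26 ± 0.32), were lower. Mrc1, the mannose receptor, was higher by 1.12 ± 0.26, beside Gpnmb. Of endothelial and mural entries, 5 of 29 tested entries (17.2%) were higher with hnRNP H1 and F, 12 (41.4%) were lower and 12 did not pass. Cdh5, the cadherin of endothelial junctions, stood at 29.4 ± 1.9 CPM with hnRNP H1 and 42.4 ± 10.1 CPM with hnRNP F, against 492 ± 128 CPM with hnRNP K (log2 fold change -3.79 ± 0.23, adjusted p = 1.53e-08), while the transcription factor gene Ets1 was higher (1.89 ± 0.24). Among 8 erythrocyte entries, Hba1, alpha globin, had 622, 226 and 220.4 CPM in the hnRNP H1 RIP and 756, 590.3 and 435 CPM in the hnRNP F RIP, against 2189, 1424 and 1880.4 CPM in the hnRNP K RIP (log2 fold change -1.99 ± 0.30, adjusted p = 5.57e-05). Of 16 skeletal muscle entries 1 was higher and 4 were lower, and the hnRNP K libraries disagreed among themselves: Acta1, skeletal actin, had 60.3, 2.86 and 12.9 CPM in the hnRNP H1 RIP and 57.4, 3.22 and 31 CPM in the hnRNP F RIP, against 227, 11.5 and 155 CPM in the hnRNP K RIP. Its call (log2 fold change -2.24 ± 0.82, adjusted p = 0.036) was lost without hnRNP K RIP 1 (adjusted p = 0.249) and in several other subsets, and the median of the muscle list was -0.77, or 0.23 without hnRNP K RIP 1.

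Housekeeping complexes did not move as blocks. Of 72 entries of cytosolic ribosomal proteins, 8 were higher and 12 were lower. Their median was -0.45 in hnRNP H1 over K and 0.71 in hnRNP F over K, a difference between the antibodies that was not tested for the list. Rpl29, a small protein of the large subunit, departed from the others: it had 23.6, 46.1 and 63.8 CPM in the hnRNP H1 RIP and 46.1, 100.1 and 86.5 CPM in the hnRNP F RIP, against 1233, 1582 and 2277 CPM in the hnRNP K RIP. Rpl29 values did not overlap between the groups and were lower with hnRNP H1 and F (log2 fold change -4.85 ± 0.32, adjusted p = 2.32e-08). Rplp0, the stalk protein, was lower at 224 ± 33.8 CPM with hnRNP H1 and 326 ± 84.8 CPM with hnRNP F, against 1807 ± 695 CPM with hnRNP K (-2.74 ± 0.25), and Rpl23 was higher (2.62 ± 0.41). Genes of ribosomal proteins have many processed copies, and reads may have been shared with them. Of nuclear-encoded respiratory chain and ATP synthase entries, a list matched by name that also takes in assembly factors, 16 of 86 tested entries (18.6%) were higher with hnRNP H1 and F, 12 (14%) were lower and 58 did not pass. Of proteasome subunits, 10 of 37 tested entries (27%) were higher with hnRNP H1 and F, 3 (8.11%) were lower and 24 did not pass (median 0.81), led by the ATPase subunit Psmc3 (2.79 ± 0.36), with Psma3, a core particle subunit, lower (-2.96 ± 0.23).

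Of translation factors, 19 of 68 tested entries (27.9%) were higher with hnRNP H1 and F, 21 (30.9%) were lower and 28 did not pass. In eIF3, the scaffold of the initiation complex, 4 of 13 tested entries were higher, 2 were lower and 7 did not pass. Eif3a, the highest of the 13, had 2068, 2114 and 2302 CPM in the hnRNP H1 RIP and 2089, 3862 and 3853 CPM in the hnRNP F RIP, against 219.6, 224 and 169 CPM in the hnRNP K RIP. Eif3a was higher in all 6 libraries than in any of the 3 (log2 fold change 3.70 ± 0.27, adjusted p = 5.94e-08). Eif3f, the lowest of the 13, had 11.8, 26.3 and 28.1 CPM in the hnRNP H1 RIP and 24.3, 52 and 62.5 CPM in the hnRNP F RIP, against 355, 426 and 573 CPM in the hnRNP K RIP. The 6 Eif3f values lay below the 3 (log2 fold change -3.81 ± 0.32, adjusted p = 1.42e-07). The helicase genes Eif4a1 (2.11 ± 0.24) and Eif4a2 (3.79 ± 0.27) were higher, while Eif4ebp2, which holds back cap-dependent initiation, stood at 119 ± 23.5 CPM with hnRNP H1 and 131 ± 55.8 CPM with hnRNP F, against 1448 ± 103 CPM with hnRNP K (log2 fold change -3.54 ± 0.25, adjusted p = 3.92e-08). Pabpc1, the poly(A)-binding protein, was lower (-2.29 ± 0.22). Of lysosome and proton pump entries, 17 of 59 tested entries (28.8%) were higher with hnRNP H1 and F, 17 (28.8%) were lower and 25 did not pass. Atp6ap1, an accessory subunit of the pump, was higher at 2669.5 ± 44.6 CPM with hnRNP H1 and 4139 ± 2023 CPM with hnRNP F, against 275 ± 6.92 CPM with hnRNP K (log2 fold change 3.60 ± 0.30, adjusted p = 1.42e-07), and Atp6v0c, of its membrane ring, was lower (-2.73 ± 0.29). With all 18 libraries scaled together, Atp6v0c had 708 ± 554 CPM in the FLAG RIP and 797 ± 173 CPM in the hnRNP K RIP. The cathepsin gene Ctsl was higher (2.91 ± 0.25), opposite to Ctsb, and Tpp1, a lysosomal peptidase, was lower (-3.47 ± 0.21).

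Of sterol and fatty acid synthesis, 11 of 29 tested entries (37.9%) were higher with hnRNP H1 and F, 9 (31%) were lower and 9 did not pass. The early steps Hmgcs1 (log2 fold change 3.58 ± 0.26, adjusted p = 5.57e-08), Pmvk (3.07 ± 0.39) and Idi1 (3.56 ± 0.35) of the mevalonate pathway were higher. The later step Nsdhl (-2.70 ± 0.34) and squalene synthase, Fdft1 (-2.25 ± 0.39), were lower, as was Fasn, fatty acid synthase (-1.81 ± 0.32). Of chromatin modifying enzymes, matched by name, 31 of 117 tested entries (26.5%) were higher with hnRNP H1 and F, 34 (29.1%) were lower and 52 did not pass, against 23.2% and 22.2% of all transcripts. Tet3, which oxidizes methylcytosine and is induced in injured sensory neurons, had 296, 213 and 303 CPM in the hnRNP H1 RIP and 261, 301 and 329 CPM in the hnRNP F RIP, against 3582, 3306 and 4251 CPM in the hnRNP K RIP. Tet3 values did not overlap between the groups and were lower with hnRNP H1 and F (log2 fold change -3.71 ± 0.20, adjusted p = 7.42e-09). Ncoa6, a nuclear receptor coactivator (-3.34 ± 0.26), and Arid1a, of the SWI/SNF remodeller (-2.21 ± 0.20), were lower, while the remodeller gene Chd3 was higher (2.58 ± 0.25). Zfp genes divided near the background, with 48 of 227 higher and 44 lower. Zfp36, tristetraprolin, which destabilizes AU-rich mRNAs, was lower at 432 ± 143 CPM with hnRNP H1 and 574 ± 121 CPM with hnRNP F, against 3048 ± 1251 CPM with hnRNP K (-2.61 ± 0.26), and Zfp91 was higher (1.96 ± 0.24).

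**Figure D5:**
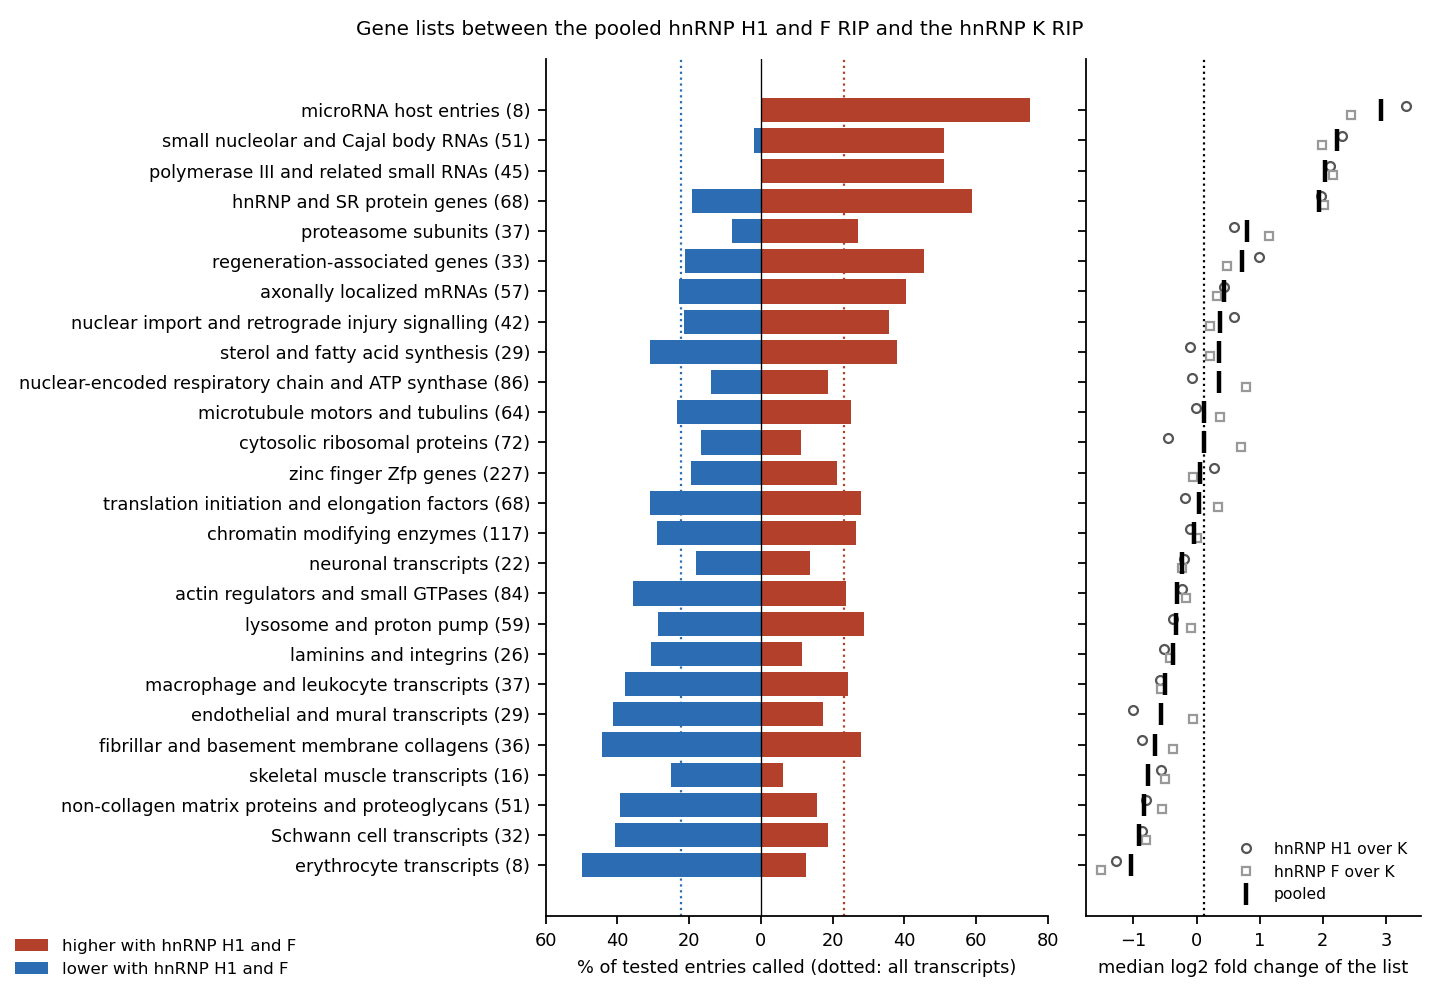
Left, the percentage of tested entries of each gene list (number tested in parentheses) called higher (red) or lower (blue) with hnRNP H1 and F, with dotted lines at the 23.2% and 22.2% of all transcripts; right, the list's median log2 fold change for hnRNP H1 over K, hnRNP F over K and both pooled, with a dotted line at the median of all transcripts. The 4 lists of RNA-binding protein genes and small RNAs have medians between 1.94 and 2.92, against a range of -1.04 to 0.81 for the others.

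Taken singly, each of the pooled antibodies differed from hnRNP K at about as many transcripts. hnRNP H1 against hnRNP K gave 4938 calls (39.4%), 2560 higher (20.4%) and 2378 lower (19%). hnRNP F against hnRNP K gave 4998 calls (39.9%), 2763 higher (22%) and 2235 lower (17.8%). Both comparisons share the hnRNP K libraries. Between hnRNP H1 and hnRNP F themselves 6 transcripts (0.0479%) passed, 1 higher (0.00798%) and 5 lower (0.0399%) with hnRNP H1, and 1987 had an unadjusted p under 0.05. That count was unstable: DESeq2 gave 430, and leaving out 1 library between 0 and 98 (98 without hnRNP F RIP 1). A difference that did not pass is not shown to be absent, and hnRNP F libraries varied most. Zc3h13, for example, differed by 5.74 ± 0.40 between hnRNP H1 and K and by 6.71 ± 0.42 between hnRNP F and K. Bgn differed by -3.97 ± 0.29 with hnRNP H1 over K and by -3.90 ± 0.29 with hnRNP F over K. Jun differed by 3.40 ± 0.24 with hnRNP H1 over K and by 3.15 ± 0.24 with hnRNP F over K.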

How the data were processed

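RNA was sequenced from RIP and Input samples of crushed rat sciatic nerve. CASAVA 1.8.2 and edgeR are named in the submitters' processing notes; aligner, read counter, genome build and row filter: not given in the sources used here. The deposited table of the authors holds counts of reads per Ensembl transcript (13416 entries, 12344 symbols) and FPKM values. The deposited FPKM matched counts minus 1 within a relative deviation of 2.41e-14, so each deposited count is read as reads plus 1, and FPKM served only to recover transcript lengths. The added 1 was kept in the main test; printed CPM are from reads.

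The comparison was fitted with edgeR 4.0.16 in R 4.3.3 on the counts as deposited, over 9 libraries with 1 coefficient per antibody (6 residual degrees of freedom). filterByExpr (count minimum 10, total minimum 15) left 12536 entries, scaling was by TMM, and the contrast weighted hnRNP H1 and hnRNP F by 0.5 each against hnRNP K. The quasi-likelihood F-test was two-sided, with Benjamini-Hochberg adjustment and a threshold of 0.05. CPM of the 9 libraries are scaled over those 9; levels in Input and the FLAG RIP, and ratios to them, are scaled over all 18. The steps were tested on simulated data. Alternatives were DESeq2 1.42.0, limma 3.58.1 (voom with quality weights), other scalings, filters and library sets.

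Members and lists were chosen with earlier results of these data known. Named transcripts are the 12 highest and 12 lowest called folds without overlap at 20 CPM or more, the 8 most abundant in each direction, a fixed set, and up to 4 per direction with the lowest adjusted p in each of 26 lists. Arpc4, Col4a2, further entries of Col4a4, Cse1l, Hnrnpa2b1, Hnrnph2, Hnrnph3, Ipo9, Kpna4, Mir3074, Tnpo1, Tnpo2, Xpo5 and Xpo6 were added after their values were seen. So were Dynll1, Mir143, Mir186, Mir199a2, Xpo1 and Xpo4. For a symbol with several entries (871 symbols) the most abundant is printed. Input, FLAG RIP and La/SSB RIP enter no test here, except the La/SSB and FLAG RIP libraries in the fit of 15. Reads are not unique molecules. Some named transcripts are not reported here.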

Additional observations from a re-analysis of the deposited data

Results flagged for a closer look

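6 transcripts differed between hnRNP H1 and hnRNP F, the antibodies that were pooled, in the test of that difference with edgeR (quasi-likelihood, Benjamini-Hochberg). The adjusted p-values ran from 0.029 to 0.0445. The count of 6 was unstable, from 0 in several settings to 430 with DESeq2. For these transcripts the pooled value averages unlike levels. Kpna6, an importin alpha, had 254, 195 and 130.3 CPM in the hnRNP H1 RIP and 35.1, 22.3 and 44.9 CPM in the hnRNP F RIP, against 66.7, 72.2 and 55.5 CPM in the hnRNP K RIP. Its log2 difference of hnRNP H1 over hnRNP F was 2.50 (adjusted p = 0.029), and the hnRNP F values lay below the hnRNP K values while the hnRNP H1 values lay above. The pooled log2 fold change was 0.33 ± 0.29 and did not pass.

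The other 5 were lower with hnRNP H1 than with hnRNP F, and 4 of them are described. LOC100363452 differed by -2.28 and LOC297756 by -2.25, and in both the mean hnRNP F level exceeded that of hnRNP K. Lyve1, a hyaluronan receptor of lymphatic vessels and macrophages, had 109, 132 and 125 CPM in the hnRNP H1 RIP and 294, 443 and 551 CPM in the hnRNP F RIP, against 673, 412 and 496 CPM in the hnRNP K RIP (hnRNP H1 over hnRNP F -1.81). Aplp2, a relative of the amyloid precursor protein, had 419.5, 462 and 515 CPM in the hnRNP H1 RIP and 1314, 1140.0 and 1193 CPM in the hnRNP F RIP, against 2328, 1830.1 and 1890.4 CPM in the hnRNP K RIP (hnRNP H1 over hnRNP F -1.38). In Aplp2 both antibodies were below hnRNP K, by unequal amounts, so the pooled direction held for each.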

How the results depend on the processing

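The count of 5689 called transcripts stayed within 1.5 times in 20 of 21 alternatives, from 4461 without hnRNP K RIP 3 to 7452 with voom. The exception was a test against a log2 fold change of 1 instead of 0, which called 3254 (1711 higher, 1543 lower), and gave 2925 for hnRNP H1 over K, 2892 for hnRNP F over K and 0 for hnRNP H1 over F. voom called 7557 for hnRNP H1 over K. Between hnRNP H1 and F, the count of 6 became 0 in the fit of 15 RIP libraries, 15 with voom, 430 with DESeq2, and ran from 0 to 98 when 1 library was left out, 98 without hnRNP F RIP 1, 0 without hnRNP F RIP 2 or either of hnRNP H1 RIP 1 and 2, 2 without hnRNP H1 RIP 3 and 1 without hnRNP K RIP 3. The replicate block gave 5867 pooled calls and 52 between hnRNP H1 and F; deviations of same-numbered libraries from their group means correlated by 0.0463 to 0.138, which is not over 0.1 for every pair, although each of the 18 pairings of a library with another group was closest at its own number, a hint from the data and not from the design. The cause of these changes was not tested. No count of calls, none of the 217 transcripts named by rule and no hnRNP H1 over F difference changed direction. Mir143, added later, went from 0.51 to -0.43 with the length trend removed and passed in neither. Of 217 named transcripts, 186 kept their direction and their side of the threshold in all 21 alternatives. Scaling to total counts raised the median of all transcripts to 0.33, against 0.12, and the share of calls that were higher to 59.1%, against 51.1%. The list medians that changed sign were those of neuronal, ribosomal, translation factor, chromatin, Zfp and muscle entries, at most 0.23 from 0 under the alternative. Counts carry no molecular identifiers, so their precision covers reads.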
